A study of Mus musculus with 22 samples.

Results

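The subject here was how the difference between 2 genotypes changed from 8 to 10 weeks of age in mouse ear. For each gene the difference between cKO-labelled libraries and WT libraries at 8 weeks was subtracted from the same difference at 10 weeks, on the log2(FPKM + 1) scale. This interaction used the 14 libraries of the 4 groups concerned, of 22 in the series, and 13619 of the 21110 genes in the files passed the filter on low values, which asked for 1 FPKM or more in 3 or more of the 14. FPKM are fragments scaled to transcript length and to the mapped fragments of the library. All mice had the C57BL/6 background. The groups were wild-type mice at 8 weeks (3 libraries), wild-type mice at 10 weeks (3 libraries), keratin 5-specific Socs3 conditional knockout mice (Socs3 cKO) at 8 weeks (4 libraries) and the same knockout at 10 weeks (4 libraries). RNA came from whole ear specimens although the source is given as keratinocytes, so a change in the number of cells of a type and a change in RNA per cell cannot be told apart. Whether replicate libraries stand for different animals is not labelled. All p-values then measure only the spread between these libraries.

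SOCS3 is induced by cytokines of the IL-6 family and, by binding the receptor subunit gp130 and JAK kinases, limits the activation of STAT3. Keratin 5 is expressed in basal keratinocytes of the epidermis and hair follicle, so a Cre under its control leaves Socs3 intact in fibroblasts, vessels, muscle and leukocytes of the ear. In skin, IL-6, oncostatin M and chemokines made by keratinocytes and other cells recruit neutrophils and monocytes, and feedback inhibitors such as the product of Tnfaip3 and SOCS3 itself are induced alongside them.

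Library properties moved with the groups. The median level of the tested genes ran from 2.50 to 4.91 FPKM for WT at 8 weeks, from 5.61 to 7.56 FPKM for WT at 10 weeks and from 6.46 to 9.59 FPKM for cKO-labelled libraries. Of 1199 olfactory and vomeronasal receptor genes, a family best known from the nose, 34.9% to 74.2% were above 0 in the WT libraries and 4.0% to 7.26% in those labelled cKO. The share of FPKM in ribosomal protein genes was 32.3% to 42.4% for WT at 8 weeks and 15.8% to 29.7% elsewhere. Each result is therefore given as deposited and after median-of-ratios scaling, which divides a library by its median ratio to the geometric mean of the 14. The median interaction over all tested genes was -0.56 as deposited and 0.02 after scaling. In each group labelled cKO, replicates 1 and 2 had over 10 FPKM of Eif2s3y, a gene of the Y chromosome, and replicates 3 and 4 as well as all WT libraries had less. The part of these properties in the results was not tested, beyond the alternative settings named below. The basal keratinocyte markers Krt5 and Krt14 were present in all 14 libraries, with Krt5 from 261 FPKM in a WT library at 8 weeks to 3102 FPKM in a cKO-labelled library at 8 weeks.

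**Figure D1:**
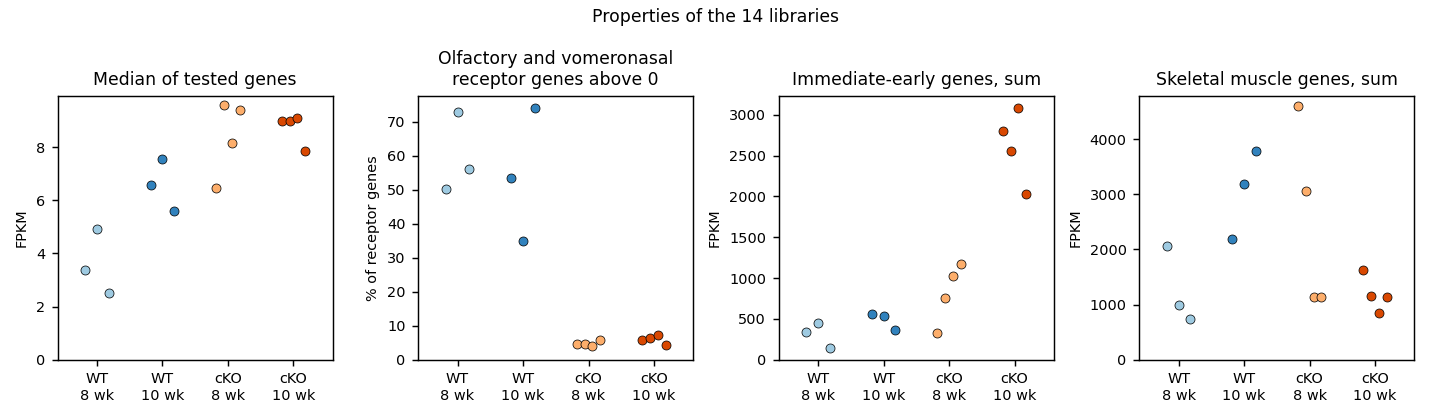
Properties of the 14 libraries, 1 point per library, by genotype and age. From left, the median FPKM of tested genes, the percentage of 1199 receptor genes above 0, and the summed FPKM of the immediate-early and the skeletal muscle lists. All 4 cKO-labelled libraries at 10 weeks lie above the other 10 for immediate-early genes, between 2027 and 3089 FPKM.

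Socs3 itself went against its label. Its level was 0.604, 1.36 and 0.930 FPKM in WT at 8 weeks and 2.76, 4.81 and 2.02 FPKM in WT at 10 weeks. In the cKO-labelled libraries it was 1.60, 5.30, 8.47 and 6.84 FPKM at 8 weeks and 36.5, 29.8, 47.7 and 32.4 FPKM at 10 weeks. As deposited, at both ages every cKO-labelled library was above every WT library of that age, by the smallest margin for replicate 1 at 8 weeks. After scaling the genotypes overlapped at 8 weeks, with a mean difference of 0.96 on the log2 scale. The files give 1 value per gene, so whether these fragments lay outside a deleted stretch cannot be read from them. The interaction of Socs3 was 1.59 (SE 0.52, limma adjusted p = 0.0858) as deposited and 1.98 (SE 0.46, limma adjusted p = 0.0466) after scaling, so the call depended on the scaling. After scaling it was also lost in 12 of 14 fits that left out 1 library, with the highest adjusted p, 0.107, without replicate 3 of WT at 10 weeks. After scaling, Socs3 rose by 2.60 (SE 0.30, limma adjusted p = 0.000151) from 8 to 10 weeks in the cKO-labelled libraries, against 0.62 (SE 0.35, limma adjusted p = 0.296) in WT. The genotype difference gave an exact two-sided permutation p of 0.0571 at each age as deposited, the smallest that 3 against 4 libraries allow, and of 0.171 at 8 weeks after scaling. Because Socs3 was not lower where it was to be deleted, every direction below refers to cKO-labelled libraries.

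The genotype difference changed with age for a small number of genes. As deposited, 174 genes (1.28% of those tested) passed an adjusted p of 0.05 in limma, 46 higher (0.338%) and 128 lower (0.94%). After scaling, 210 genes (1.54%) passed, 177 higher (1.3%) and 33 lower (0.242%). At an unadjusted p of 0.05, 28.7% of tested genes passed as deposited and 14.9% after scaling. The split between higher and lower thus turned with the scaling, while 79 genes (0.58%) were called in the same direction under both, 46 that rose and 33 that fell. A gene is said to have risen or fallen where its genotype difference did so from 8 to 10 weeks. Leaving out single libraries moved their number between 27, without replicate 2 of WT at 10 weeks, and 277, without replicate 1 labelled cKO at 8 weeks. With the share of receptor genes as a covariate, 28 genes rose and 18 fell under both scalings. Without replicates 1 and 2 labelled cKO, those with Eif2s3y, 26 rose and 22 fell, of which 24 were among the 46 and 1 was among the 33. The 1 fall kept there was Gar1, a gene outside the naming rule. With the Eif2s3y level as a covariate and no library left out, 48 rose and 38 fell. Of these, 45 were among the 46 and 25 among the 33. None of the 79 changed sign under any other setting in which it was tested. For single genes below, fits that left out 1 library are counted as kept where the gene was called under both scalings, and the adjusted p beside the count is as deposited.

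**Figure D2:**
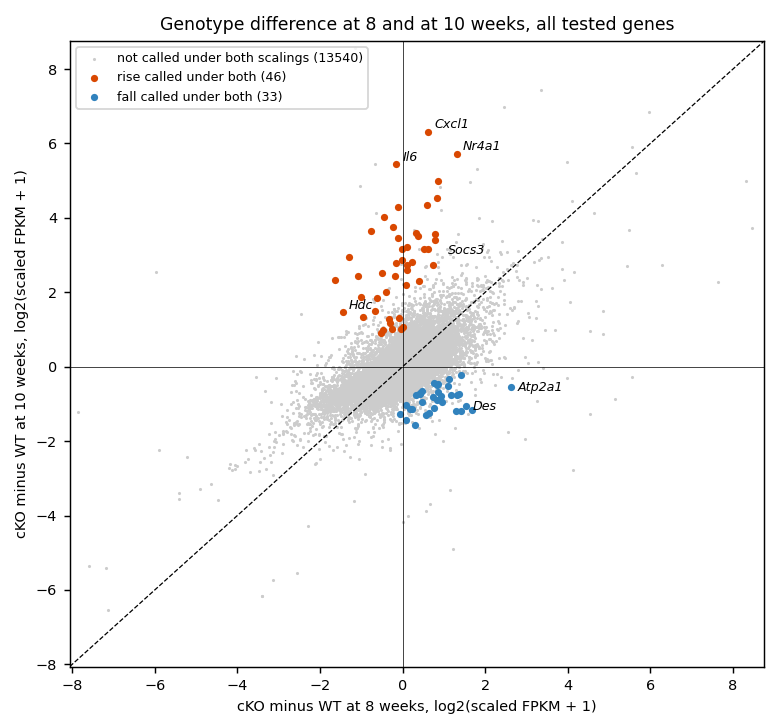
Difference between cKO-labelled libraries and WT libraries at 8 weeks (x axis) and at 10 weeks (y axis), both on the log2(scaled FPKM + 1) scale, 1 point per tested gene. The 46 rises lie above the diagonal, and the 33 falls lie below it. At 8 weeks, after scaling, 35 of the rises had no called difference, 4 were higher (14.9% of all tested genes were) and 7 lower (14.3%). Socs3 is labelled beside its point, which was called after scaling only.

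The 46 rises were set apart by the cKO-labelled libraries at 10 weeks. All 46 were higher there than in WT of the same age, under both scalings, against 16.9% of all tested genes as deposited and 12.4% after scaling. All 4 of these libraries were above each of the other 10 for the 46 genes as deposited, against 4.21% of all tested genes. After scaling it was 45 genes, against 3.86%. From 8 to 10 weeks all 46 rose in the cKO-labelled libraries as deposited (1.36% of all tested genes did), and all but Ptar1 after scaling (1.66%). In WT none changed with age as deposited, where 23.3% of all tested genes were higher and 0.279% lower, and 1 was lower after scaling (0.771%). At 8 weeks 30 of the 46 did not differ between genotypes past the threshold as deposited, 14 were higher (60.3% of all tested genes were) and 2 were lower (2.99%). Because 15 of the 46 passed the filter on low values only through the cKO-labelled libraries at 10 weeks, these counts describe the called genes and support nothing by themselves. The median interaction of the 46 was 2.26 as deposited and 2.82 after scaling, set by the calls.

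Il6, the founding cytokine of the family that signals through gp130, had the largest interaction of the 46 as deposited. Its level was 0.208, 0.690 and 0.166 FPKM in WT at 8 weeks and 0.618, 0.0801 and 0.0696 FPKM in WT at 10 weeks. In the cKO-labelled libraries it was 0.524, 0.237, 0.294 and 0.714 FPKM at 8 weeks and 43.7, 42.8, 82.2 and 109 FPKM at 10 weeks. The first 3 groups overlapped, all under 1 FPKM, and the last stood apart. The interaction was 5.62 (SE 0.44, limma adjusted p = 7.02e-06) as deposited and 5.59 (limma adjusted p = 1.54e-05) after scaling. Oncostatin M (Osm), a cytokine of the same family made mainly by leukocytes, turned direction between the ages. Osm was 1.08, 1.11 and 0.345 FPKM in WT at 8 weeks and 0.311, 0.0820, 0.267 and 0.132 FPKM in the cKO-labelled libraries of that age. At 10 weeks WT had 0.428, 0.332 and 0.433 FPKM, beside 2.81, 2.62, 3.58 and 3.54 FPKM in those labelled cKO. The groups did not overlap at either age. Its genotype difference was -0.60 (SE 0.19, limma adjusted p = 0.0127) at 8 weeks and 1.56 (SE 0.19, limma adjusted p = 4.94e-05) at 10 weeks as deposited.

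Of 35 tested genes on the list of IL-6 and STAT3 signalling, 5 rose under both scalings, against 0.338% of all tested genes, and none fell: Il6, Osm, the transcription factors Cebpd and Nfil3, and Tnfaip6, a hyaluronan-binding secreted protein. After scaling only, Socs3 and Fos were called as well. Il6 and Osm passed the filter on low values only through the cKO-labelled libraries at 10 weeks. The count of 5 therefore describes these genes and supports nothing by itself. Tnfaip6 was between 3.68 and 14.9 FPKM in the other 10 libraries and 128, 112, 178 and 124 FPKM in those labelled cKO at 10 weeks, with an interaction of 3.82 (SE 0.45, limma adjusted p = 0.000403). Cebpd had an interaction of 2.86 as deposited (SE 0.46, limma adjusted p = 0.00676). The receptors and the transducer did not pass: Il6ra had 0.07 (limma adjusted p = 0.949), Il6st, which encodes gp130, -0.24 (0.773), Osmr -0.34 (0.512) and Stat3 -0.48 (0.513) as deposited. The list's median interaction was 0.07 as deposited and 0.61 after scaling, beside -0.56 and 0.02 for all tested genes. Osm, Cebpd and several genes named below (Cxcl2, Ptgs2, Tnfaip3, Sox18, Ankrd2) stand outside the naming rule and were chosen after their values were seen.

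**Figure D3:**
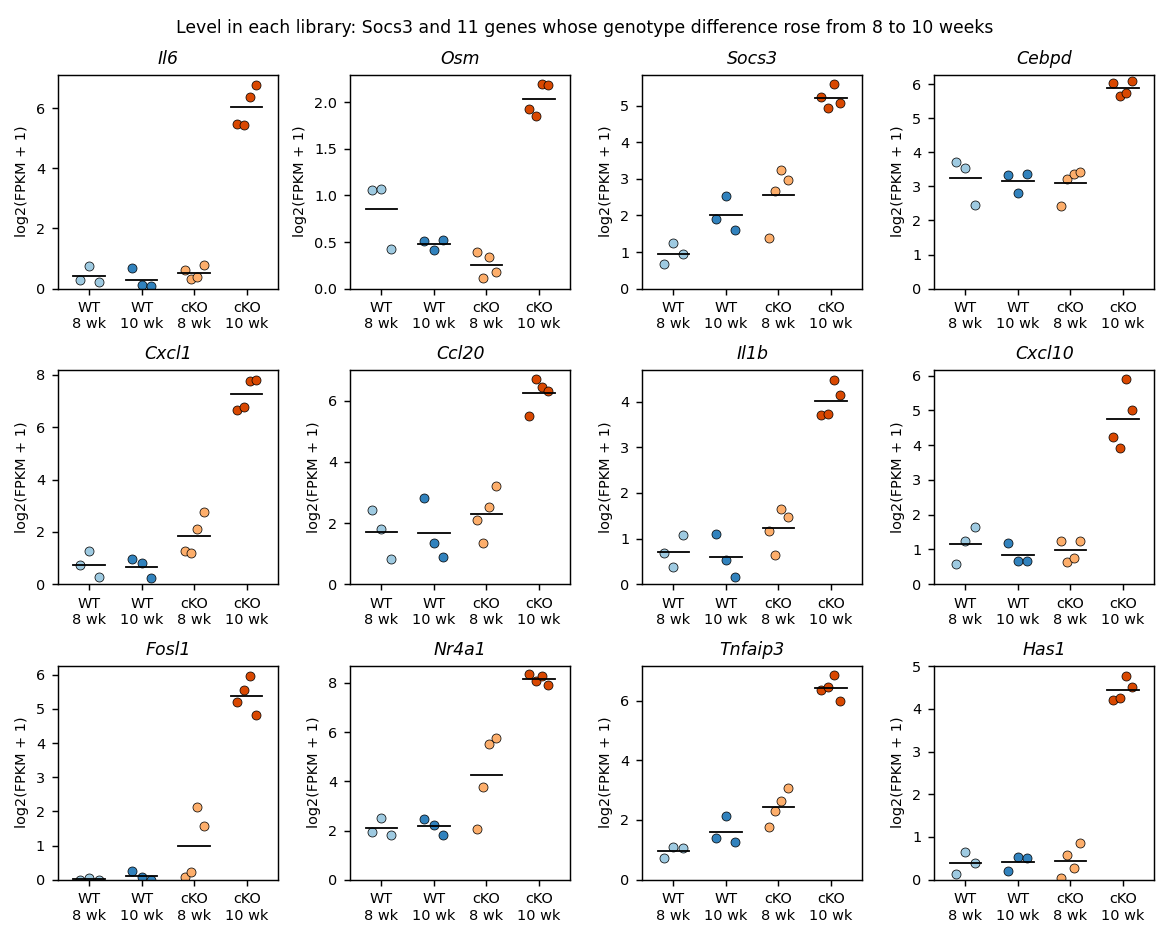
Level of 12 genes in each of the 14 libraries as log2(FPKM + 1), 1 point per library with a line at the group mean. For all but Socs3 the interaction passed the test under both scalings, and in all 12 panels the 4 cKO-labelled libraries at 10 weeks lie above the other 10.

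Among chemokines of neutrophils and monocytes, 4 of 15 tested members rose under both scalings, against 0.338% of all tested genes, and none fell. Cxcl1, a ligand of the neutrophil receptor CXCR2, was 0.651, 1.40 and 0.196 FPKM in WT at 8 weeks and 0.970, 0.754 and 0.164 FPKM in WT at 10 weeks. In the cKO-labelled libraries it was 1.41, 1.30, 3.29 and 5.81 FPKM at 8 weeks and 101, 109, 217 and 223 FPKM at 10 weeks. The 2 WT groups overlapped, and at 8 weeks the lowest cKO-labelled library lay within their range. The interaction of Cxcl1 was 5.50 (SE 0.57, limma adjusted p = 0.000113). Cxcl2, another CXCR2 ligand, had 3.69 (limma adjusted p = 0.000113). Ccl2 and Ccl7, ligands of the monocyte receptor CCR2, had 3.56 (SE 0.57, limma adjusted p = 0.00676) and 3.24 (SE 0.60, limma adjusted p = 0.0206). After scaling both of these were lower in the cKO-labelled libraries at 8 weeks and higher at 10 weeks. The call of Ccl7 was lost when any of 4 libraries was left out, with the highest adjusted p, 0.069, without replicate 2 of WT at 10 weeks. The median interaction of the list was 0.99 as deposited and 1.33 after scaling.

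On the lists of the IL-1 and IL-36 family and of IL-17 and related cytokines, 2 genes each rose under both scalings, against 0.338% of all tested genes. Il1b was 0.109 to 1.13 FPKM in the WT libraries, 1.24, 0.559, 2.14 and 1.76 FPKM in those labelled cKO at 8 weeks and 12.1, 12.3, 21.3 and 16.6 FPKM at 10 weeks. Its interaction was 2.91 (SE 0.42, limma adjusted p = 0.00254). On the IL-1 and IL-36 list it was joined by Nlrp3, an inflammasome sensor, at 1.11 (limma adjusted p = 0.0402), and the other 19 of 21 tested members were called under neither scaling. Ccl20, which attracts cells with CCR6, and Nfkbiz, a nuclear IκB protein that IL-17 induces, rose among 17 tested members of the list of IL-17 and related cytokines, at 3.96 (SE 0.70, limma adjusted p = 0.0147) and 2.02 (SE 0.47, limma adjusted p = 0.0445). Nlrp3 kept its call in 1 of 14 fits that left out 1 library, Nfkbiz in 3 and Ccl20 in 12; the highest adjusted p were 0.113 and 0.0582 for Nlrp3 and Ccl20, both without replicate 2 of WT at 10 weeks, and 0.0981 for Nfkbiz, without replicate 3 labelled cKO at 10 weeks. Tnfaip3, which encodes an inhibitor of NF-kB signalling, went from 2.43, 3.90, 5.20 and 7.41 FPKM in the cKO-labelled libraries at 8 weeks to 80.0, 86.0, 116 and 63.1 FPKM at 10 weeks. In WT it was between 0.636 and 3.39 FPKM. Ptgs2, the inducible cyclooxygenase of prostaglandin synthesis, had an interaction of 3.77, and Has1, a hyaluronan synthase, 3.97 (SE 0.33, limma adjusted p = 7.96e-06). Of 28 tested interferon-response genes, Cxcl10 and the transcription factor Irf1 rose under both scalings, against the same 0.338%. Their interactions were 4.11 (SE 0.55, limma adjusted p = 0.00123) and 2.29 (SE 0.44, limma adjusted p = 0.0251). Irf1 lost its call without any of 4 libraries, with the highest adjusted p, 0.0761, without replicate 1 of WT at 8 weeks.

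Promoters are shown for Socs3, the targeted gene, because it holds a STAT motif, and for 3 rises that hold an NF-kB motif. Socs3 was not among the genes called under both scalings and is not in the shares given for them. They are the 200 bases before the RefSeq transcription start (build GRCm38.p6; the files were made on another build), 5′ to 3′ on the strand of the gene, with the motif letters in capitals: for Socs3 TTCNNNGAA, a palindrome that STAT factors can bind, and for the others a form of the NF-kB site on either strand, which is GGG, any 2 bases, then TTTCC.
Socs3, chr11:117969367-117969566, minus strand: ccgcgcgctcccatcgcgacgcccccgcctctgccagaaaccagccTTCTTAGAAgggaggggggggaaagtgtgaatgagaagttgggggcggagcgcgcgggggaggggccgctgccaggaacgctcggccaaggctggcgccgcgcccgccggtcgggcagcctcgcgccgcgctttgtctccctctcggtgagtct
Il6, chr5:30012914-30013113, plus strand: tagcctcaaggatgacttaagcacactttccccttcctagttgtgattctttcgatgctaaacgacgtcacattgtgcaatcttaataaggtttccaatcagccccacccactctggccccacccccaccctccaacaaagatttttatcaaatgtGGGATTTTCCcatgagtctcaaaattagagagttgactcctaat
Cxcl1, chr5:90891045-90891244, plus strand: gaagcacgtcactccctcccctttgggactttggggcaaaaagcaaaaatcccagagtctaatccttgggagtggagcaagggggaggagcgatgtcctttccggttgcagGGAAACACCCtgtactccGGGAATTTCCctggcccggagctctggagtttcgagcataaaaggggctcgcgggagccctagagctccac
Cxcl2, chr5:90903699-90903898, plus strand: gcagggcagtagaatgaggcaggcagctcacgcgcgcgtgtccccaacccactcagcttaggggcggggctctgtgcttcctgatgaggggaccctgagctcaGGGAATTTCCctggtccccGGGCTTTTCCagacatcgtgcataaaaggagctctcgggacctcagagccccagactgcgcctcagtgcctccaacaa

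Windows of 300 bases, from 250 before to 50 after the start, were given for 33 of the 46 rises, 26 of the 33 falls and 10460 of the tested genes. The NF-kB form was in 6 of the 33 (18.2%): Ccl20, Cxcl1, Cxcl2, Il6, Rel and Tnfaip3. It was in none of the 26 falls and in 2.08% of all tested genes with a window. TTCNNNGAA was in 7 of the 33 rises (21.2%), which included Irf1, Tnfaip6 and Csrnp1, in 1 of the 26 falls (3.85%) and in 8.19% of all. TGACGTCA, a cAMP response element, was in 1 of the 33 (Has1, 3.03%) and in 3.40% of all. The NF-kB form and TGACGTCA were chosen after the rises were seen. A match is a description of the letters and was not tested as a site.

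Immediate-early genes, which are transcribed within minutes of a stimulus, moved in the same libraries. Fosl1, an AP-1 subunit, was at or below 0.186 FPKM in the 6 WT libraries, at 0.0465, 0.164, 3.41 and 1.95 FPKM in those labelled cKO at 8 weeks and at 35.8, 45.8, 61.7 and 27.3 FPKM at 10 weeks. Its interaction was 4.30 (SE 0.57, limma adjusted p = 0.00123). The nuclear receptor gene Nr4a1 was 2.49 to 4.63 FPKM in WT, 3.2, 12.5, 44.4 and 53.0 FPKM in the cKO-labelled libraries at 8 weeks and 332, 272, 314 and 242 FPKM at 10 weeks. For both genes the group labelled cKO at 8 weeks was spread between the WT level and that of 10 weeks, lowest in replicate 1 and highest in replicates 3 and 4. The interaction of Nr4a1 was 3.82 (SE 0.86, limma adjusted p = 0.0402). It kept its call in 4 of 14 fits that left out 1 library, and without replicate 2 of WT at 10 weeks the adjusted p was 0.131. Of 25 tested members of the list, Fosl1, Nr4a1 and Nr4a2 rose under both scalings and 9 rose after scaling. Of all tested genes, 0.338% rose under both and 1.3% after scaling. Fosl1 passed the filter on low values only through the cKO-labelled libraries at 10 weeks, so these counts are a description. The summed level of the list ran from 140.6 to 448.2 FPKM for WT at 8 weeks and from 360.4 to 558.1 FPKM for WT at 10 weeks. For cKO-labelled libraries it ran from 326.6 to 1176 FPKM at 8 weeks and from 2027 to 3089 FPKM at 10 weeks. Handling of tissue can induce this class, and its part in the rises of cytokine and chemokine genes was not tested.

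Few leukocyte markers were called singly, while the medians of their lists lay above that of all tested genes (-0.56 as deposited and 0.02 after scaling). The median was 0.68 as deposited and 1.33 after scaling for 22 monocyte and macrophage genes, 0.66 and 1.38 for 16 dendritic and Langerhans cell genes, and -0.02 and 0.56 for 9 neutrophil genes. After scaling all 22, all 16 and all 9 were positive, as were 77 of 81 ribosomal protein genes, while all 28 keratin-associated protein genes were negative. The scaled sum of the dendritic and Langerhans list ran from 2335 to 2839 for WT at 8 weeks and from 785 to 1146 for WT at 10 weeks. For cKO-labelled libraries it ran from 914.6 to 1832 at 8 weeks and from 1390 to 2284 at 10 weeks. Of the 9 neutrophil genes Il1b alone was called. The granule genes Elane and Ngp stayed at or below 0.310 and 0.257 FPKM in all 14 libraries and were not tested. S100a8 and S100a9, the calprotectin subunits that neutrophils and activated keratinocytes both make, were 838 and 425 FPKM in replicate 3 labelled cKO at 10 weeks. In the other 3 libraries of that group they were 7.42, 13.4 and 16.5 FPKM and 5.13, 13.8 and 18.6 FPKM, below all 4 cKO-labelled libraries at 8 weeks. That replicate was thus alone in its group for calprotectin, while its Il6 and Cxcl1 lay within the range of replicates 1, 2 and 4. Of 22 tested monocyte and macrophage genes Cd14, a co-receptor for lipopolysaccharide, rose under both scalings, at 2.23 (SE 0.38, limma adjusted p = 0.00959) as deposited, and Csf1r and Itgam after scaling only. Of 16 dendritic and Langerhans cell genes Ccr7, which guides migration to lymph nodes, rose, at 1.33 (SE 0.31, limma adjusted p = 0.0491); it kept its call in 3 of 14 fits that left out 1 library, with 0.14 without replicate 2 of WT at 10 weeks. Cd207, Flt3 and H2-Eb1 were called after scaling only. Beside these counts, 0.338% of all tested genes rose under both scalings and 1.3% after scaling.

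Hdc, the enzyme that makes histamine and is expressed in mast cells, basophils and other myeloid cells, turned direction as Osm did. Hdc was 2.75, 3.24 and 2.50 FPKM in WT at 8 weeks and 1.13, 1.57, 1.52 and 1.24 FPKM in the cKO-labelled libraries of that age. At 10 weeks WT had 3.13, 4.72 and 3.22 FPKM, beside 11.8, 15.6, 16.1 and 13.6 FPKM in those labelled cKO. The groups did not overlap at either age, below WT at 8 weeks and above it at 10. The interaction was 2.41 (SE 0.30, limma adjusted p = 0.000637) as deposited and 2.90 (limma adjusted p = 2.48e-05) after scaling. Hdc and Osm were the 2 rises called in opposite directions at the 2 ages under both scalings. Of 12 tested mast cell and basophil genes Hdc alone rose under both scalings, against 0.338% of all tested genes. Tpsg1, Kit, Gata2 and Mrgprb1 were called after scaling only, where 1.3% of all tested genes rose. The median interaction of the list was 1.17 as deposited and 1.70 after scaling, and all 12 were positive after scaling. After scaling, its summed level ran from 900.6 to 1694 for WT at 8 weeks and from 438.7 to 641.9 for WT at 10 weeks. For cKO-labelled libraries it ran from 65.0 to 355.1 at 8 weeks and from 345.6 to 732.6 at 10 weeks.

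**Figure D4:**
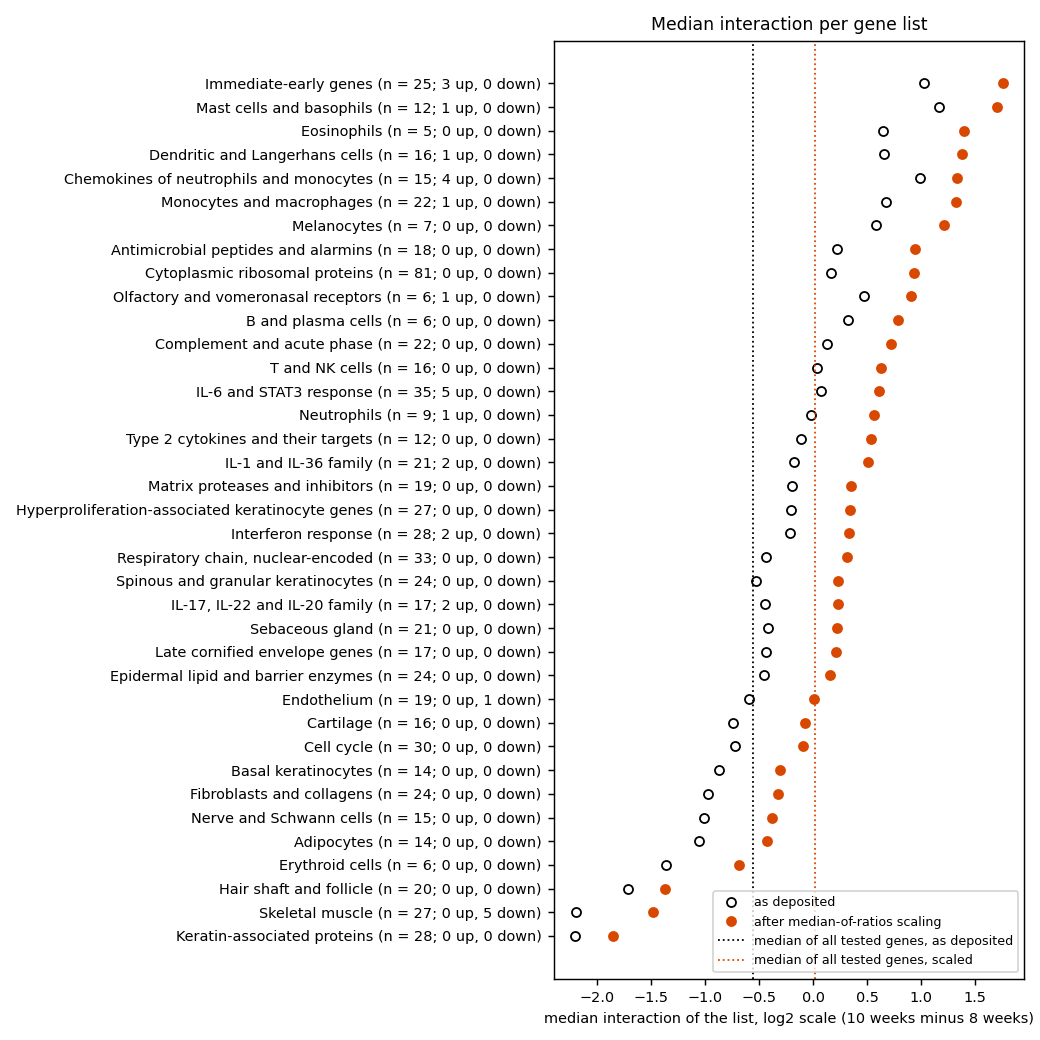
Median interaction of each of 37 gene lists (x axis, log2 scale), as deposited (open points) and after scaling (filled points), with the median of all tested genes as dotted lines at -0.56 and 0.02. The labels give the tested members and how many were called under both scalings; skeletal muscle, with 5 down, is the list with most falls.

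The 33 falls had another pattern. In all 33 the cKO-labelled libraries were higher than WT at 8 weeks as deposited, against 60.3% of all tested genes, and in 19 after scaling, against 14.9%. At 10 weeks 8 were lower as deposited, against 2.99% of all tested genes, and 23 after scaling, against 8.66%. In WT 32 of the 33 rose from 8 to 10 weeks as deposited (23.3% of all tested genes did) and 19 after scaling (0.338%). In the cKO-labelled libraries 3 fell with age as deposited (0.382% of all tested genes did) and 5 after scaling (0.419%). The 3 WT libraries at 8 weeks were below all other 11 for 24 of the 33 as deposited, against 25% of all tested genes, and for 7 after scaling, against 4.49%. These positions are of genes chosen by the same interaction, so the counts describe the falls and support nothing by themselves. The medians, receptor genes and ribosomal share of the WT libraries at 8 weeks are given above, and their part in the falls was not tested.

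Genes of skeletal muscle led the falls. The ear holds thin auricular muscle, and the amount in a specimen was not measured. Atp2a1, the calcium pump of fast muscle fibres, was 6.70, 6.31 and 2.61 FPKM in WT at 8 weeks and 26.6, 77.5 and 50.0 FPKM in WT at 10 weeks. In the cKO-labelled libraries it was 83.3, 143, 40.5 and 42.5 FPKM at 8 weeks and 63.4, 39.4, 34.3 and 25.5 FPKM at 10 weeks. The WT libraries at 8 weeks were below all others, and the other 3 groups overlapped. Its interaction was -3.82 (SE 0.65, limma adjusted p = 0.0101) as deposited and -3.17 (limma adjusted p = 0.0185) after scaling. Des, the muscle intermediate filament desmin, was 4.96, 7.74 and 3.17 FPKM in WT at 8 weeks and 22, 43.5 and 44.4 FPKM in WT at 10 weeks. It was 32.8, 49.5, 27.2 and 24.0 FPKM and then 26.1, 18.8, 16 and 18.9 FPKM in the cKO-labelled libraries, so that WT was lower at 8 weeks without overlap, while at 10 weeks the 2 groups overlapped. Its interaction was -3.26 (SE 0.46, limma adjusted p = 0.00251), and after scaling Des was higher at 8 weeks (1.55) and lower at 10 weeks (-1.06), both past the threshold.

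Of 27 tested muscle genes 5 fell under both scalings (Acta1, Myh1, Myh2, Atp2a1 and Des), against 0.242% of all tested genes. As deposited 2 more fell (Myl1 and Casq1), where 0.94% of all tested genes did, and none rose. The skeletal actin Acta1 had -3.57 (SE 0.71, limma adjusted p = 0.0292), and the fast myosin heavy chains Myh1 and Myh2 had -3.19 (SE 0.52, limma adjusted p = 0.00714) and -2.46 (SE 0.51, limma adjusted p = 0.0314). Eef1a2, the translation elongation factor isoform of muscle and nerve, had -2.91 (SE 0.52, limma adjusted p = 0.0147), and the small heat shock protein gene Hspb6 -2.71 (SE 0.53, limma adjusted p = 0.0262). Without replicate 2 of WT at 10 weeks the adjusted p was 0.0957 for Acta1, 0.114 for Myh2, 0.0582 for Eef1a2 and 0.0957 for Hspb6, and as deposited Myh1 still passed, at 0.0341. In all, Acta1 kept its call in 7 of 14 such fits, Myh1 in 6, Hspb6 in 5, Myh2 in 2 and Eef1a2 in 11. The median interaction of the muscle list was -2.20 as deposited and -1.49 after scaling, and 26 of its 27 members were negative after scaling. Its most abundant members did not pass: Mylpf had -2.20 (limma adjusted p = 0.0769), Tnnc2 -2.11 (0.0855), Tnni2 -1.49 (0.197) and Mb -1.40 (0.143) as deposited. The summed level of the list ran from 731.0 to 2053 FPKM for WT at 8 weeks and from 2182 to 3780 FPKM for WT at 10 weeks. In cKO-labelled replicates 1 to 4 it was 4596, 3061, 1138 and 1140 FPKM at 8 weeks, and it ran from 853.4 to 1627 FPKM at 10 weeks. The high level at 8 weeks was thus that of replicates 1 and 2, which also had Eif2s3y, while replicates 3 and 4 lay within the range of 10 weeks. With replicates 1 and 2 labelled cKO left out at both ages, none of the 5 muscle genes was called under both scalings. That fit keeps only replicates 3 and 4 labelled cKO at each age. With all 14 libraries kept and the Eif2s3y level as a covariate, all 5 were called under both scalings. In the fit without replicates 1 and 2, all 5 stayed negative. After scaling the interaction was then -2.78 (limma adjusted p = 0.059) for Atp2a1 and -2.39 (limma adjusted p = 0.059) for Des, and as deposited both still passed.

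**Figure D5:**
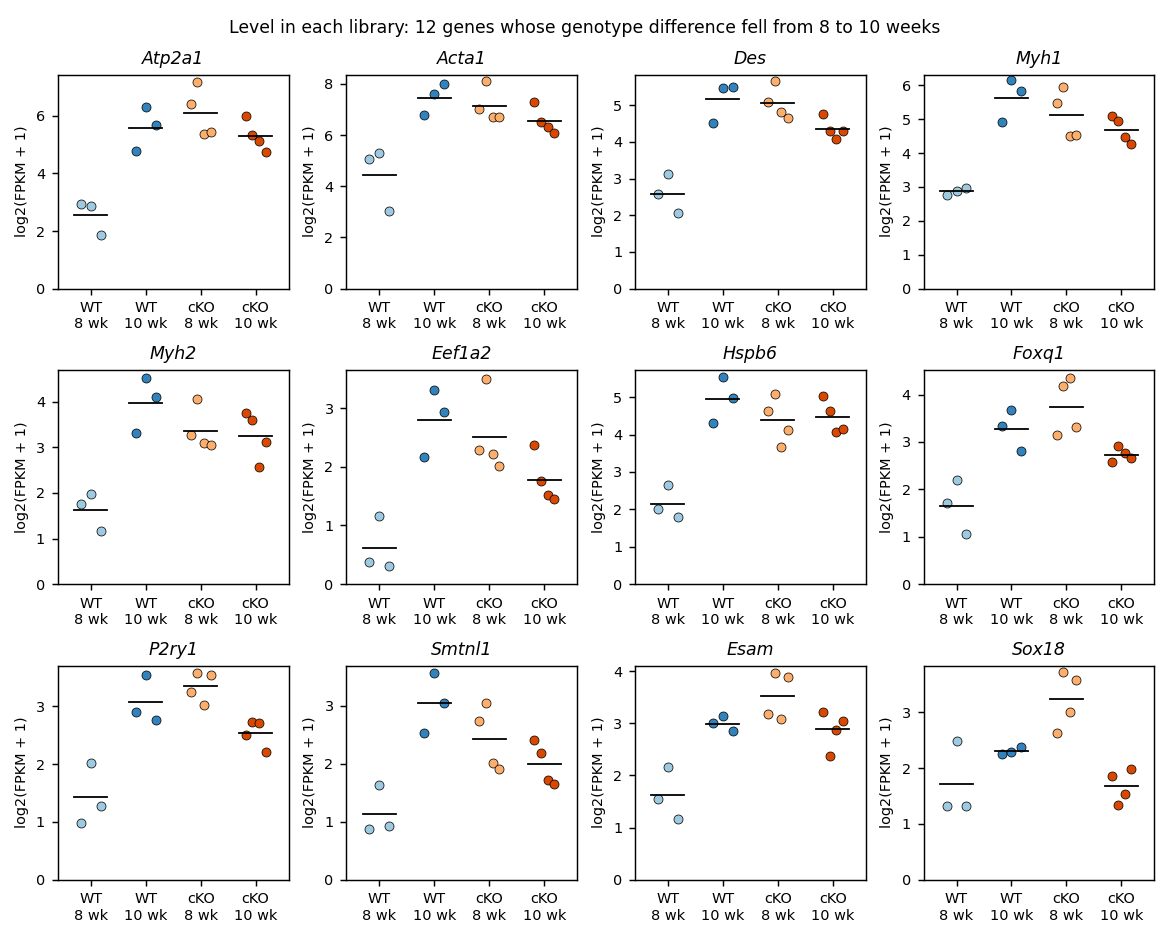
Level of 12 genes whose interaction fell under both scalings, in each of the 14 libraries as log2(FPKM + 1), 1 point per library with a line at the group mean. The 3 WT libraries at 8 weeks lie below the other 11 in every panel of the upper 2 rows, Atp2a1 to Foxq1.

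Of the 33 falls, 6 were on a list and 27 on none. The endothelial adhesion gene Esam had -2.02 (SE 0.43, limma adjusted p = 0.0356) and was the 1 called gene of 19 tested endothelial markers, whose median was -0.59 as deposited and 0.01 after scaling. Of all tested genes, 0.242% fell under both scalings. Sox18, a transcription factor of vascular and lymphatic endothelium, was 5.19, 12.2, 7.07 and 11 FPKM in the cKO-labelled libraries at 8 weeks and 2.61, 1.54, 1.92 and 2.94 FPKM at 10 weeks, a fall without overlap. In WT it was 1.51, 4.58 and 1.51 FPKM at 8 weeks and 3.77, 3.90 and 4.21 FPKM at 10 weeks. Foxq1, a forkhead transcription factor of the hair follicle, had -2.64 (SE 0.48, limma adjusted p = 0.0152) and P2ry1, a receptor for ADP, -2.46 (SE 0.40, limma adjusted p = 0.00714). Smtnl1, a smoothelin-like protein of muscle, had -2.34 (SE 0.47, limma adjusted p = 0.0292), and Ankrd2, a stretch-responsive protein of slow muscle, -2.20. Esam kept its call in 3 of 14 fits without 1 library, Smtnl1 in 5 and Foxq1 in 13; without replicate 2 of WT at 10 weeks their adjusted p were 0.114, 0.0994 and 0.064.

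The lists of keratinocyte programmes gave no call under both scalings. Of all tested genes, 1.28% were called as deposited, 1.54% after scaling and 0.58% under both. An absence of calls in lists of these sizes, here and below, lies near those shares and is a description only. No member passed among 24 tested spinous and granular genes, 17 late cornified envelope genes, 18 antimicrobial peptides and alarmins, 30 cell cycle genes and 24 epidermal lipid and barrier enzymes, under either scaling. Their medians after scaling were 0.23, 0.21, 0.95, -0.10 and 0.15. Of 14 basal keratinocyte genes Col17a1, and of 27 genes of hyperproliferative epidermis Serpinb3b, fell as deposited only. The median was -1.71 (as deposited) and -1.37 (scaled) for hair shaft and follicle genes, and -2.20 and -1.85 for 28 keratin-associated protein genes, with no gene called in either list. Their summed levels were uneven between the cKO-labelled libraries at 8 weeks. These were 249, 50.0, 714 and 149 FPKM for hair genes, and 322, 12.7, 1098 and 289 FPKM for keratin-associated protein genes. For the latter the lowest lay below all WT libraries, which ran from 21.7 to 59.5 FPKM. The members of the last family are near-identical copies among which the authors' quantification may split fragments, as it may for the late cornified envelope genes. None of 81 ribosomal protein genes was called, and their median was 0.16 (as deposited) and 0.93 (scaled). In all, 13 of 37 lists held a gene called under both scalings and 16 held none called under either.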

How the data were processed

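RNA sequencing of mouse ear gave 1 value per gene and library. Per the labels' protocols, TRIzol was used for total RNA and a TruSeq kit, which does not mark strand, for the libraries, read as single ends of 50 bases. Per the submitters' processing notes, TopHat2 2.1.0, Cufflinks and the build mm9 were used. For the Cufflinks version, the annotation and filters, the entry is: not given in the sources used here. The authors deposited FPKM. Count models were therefore not used, the depth in reads is unknown, and a value of exactly 0 may stand for an estimate that failed.

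Values were taken as log2(FPKM + 1), as deposited and after median-of-ratios scaling over the 15100 genes above 0 in all 14 libraries. A model with a mean for each of the 4 groups was fitted (limma 3.58.1, R 4.3.3, intensity trend). Benjamini-Hochberg adjusted p under 0.05 was called over all 13619 tested genes. Fold changes on this scale understate those of low genes. Tables and figures used Python 3.11.15, numpy 2.4.6, pandas 2.3.3, scipy 1.17.1 and matplotlib 3.10.9. The scripts were tested on simulated data.

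The comparison, the 37 gene lists and the rules were chosen with earlier results of these data known. The naming rule gives Socs3, the 10 largest rises and 10 largest falls after scaling among genes called under both scalings, passing over unnamed models and small RNA genes, and up to 2 such genes per list. No 2 libraries held identical values, and libraries of a group correlated at r = 0.892 to 0.971 across genes. Same-numbered libraries deviated from their group means with correlations of -0.33 to 0.35, and in no pair of groups were all over 0.1. The main fit therefore did not pair libraries by number. With groups this small the check cannot exclude pairing. The 2 week libraries entered an alternative only. The closing part gives the alternatives.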

Additional observations from a re-analysis of the deposited data

Results flagged for a closer look

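The genotype difference differed between 8 and 10 weeks, by the limma test of the interaction itself, for each gene below. Of the 46 rises called under both scalings, 15 passed the filter on low values only through the cKO-labelled libraries at 10 weeks. Il6, Fosl1 and Olfr1033 are among those 15, so the list is a description and supports nothing by itself. The values are interactions on the log2(FPKM + 1) scale as deposited. Among chemokines and cytokines they were 5.50 for Cxcl1, 5.62 for Il6, 4.11 for Cxcl10, 3.96 for Ccl20, 3.56 for Ccl2, 3.24 for Ccl7 and 2.91 for Il1b. Among secreted or matrix-related genes they were 3.82 for Tnfaip6 and 3.97 for Has1. For transcription factors and nuclear regulators they were 3.82 for Nr4a1, 4.30 for Fosl1, 2.02 for Nfkbiz and 2.29 for Irf1. For genes of leukocytes they were 2.23 for Cd14, 1.33 for Ccr7, 1.11 for Nlrp3 and 2.41 for Hdc. Olfr1033, of the olfactory receptor family, had 1.32: it was 1.65 to 3.70 FPKM in the cKO-labelled libraries at 10 weeks and at most 0.651 FPKM in the other 10. Olfr1033 kept its call under both scalings in 7 of 14 fits that left out 1 library. It lost the call with the receptor share as covariate, with a pseudocount of 0.1 and with only the libraries with Eif2s3y under 10 FPKM. Socs3 was flagged after scaling only, at 1.98.

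Falls were -3.82 for Atp2a1, -3.57 for Acta1, -3.26 for Des, -3.19 for Myh1, -2.46 for Myh2, -2.91 for Eef1a2, -2.71 for Hspb6, -2.34 for Smtnl1, -2.64 for Foxq1, -2.46 for P2ry1 and -2.02 for Esam.

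Replicate 4 labelled cKO at 10 weeks stood apart from the other 3 of its group in the median level of tested genes (7.86 FPKM, the others 8.99 to 9.08 FPKM) and in total FPKM (594790, the others 493222 to 508522). These were 2 of 68 groups of 4 libraries examined in this way, and chance flags about 1 in 20.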

How the results depend on the processing

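Rises plus falls under both scalings numbered 79, against 50 with a pseudocount of 0.1, 221 with all 22 libraries, 785 with array quality weights, 46 with the receptor share as covariate, 164 after removing a length trend, 131 without the library of lowest median in each group, 48 with only the libraries with Eif2s3y under 10 FPKM (added once the data had been seen) and 28 at equal total FPKM. Without 1 library they numbered 27 to 277: 34 and 130 without replicates 1 and 2 of WT at 8 weeks, 45, 27 and 37 without replicates 1 to 3 of WT at 10 weeks, 277 without replicate 1 labelled cKO at 8 weeks, and 46, 40, 36 and 47 without replicates 1 to 4 labelled cKO at 10 weeks. Calls as deposited (174) became 103 with no filter, 1339 with all 22 libraries, 4973 with weights, 56 with the receptor covariate, 967 without the lowest medians, 28 at equal total FPKM and 35 to 2531 without 1 library. Calls after scaling (210) became 463 with no filter, 118 at a filter of 5 FPKM, 484 with all 22 libraries, 1325 with weights, 59 with Eif2s3y under 10 FPKM, 28 at equal total FPKM and 96 to 398 without 1 library. With the replicate number as a block, 351 genes were called as deposited, 149 after scaling and 68 under both, of which 43 were among the 46 rises and 19 among the 33 falls. The cause of these changes was not tested, also where a setting has fewer libraries or genes.

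The Socs3 interaction as deposited (1.59) passed the threshold with median-of-ratios scaling (1.98), weights (1.25), upper-quartile scaling (2.00) and without replicate 1 labelled cKO at 8 weeks (1.20); without 1 library it ran from 1.20 to 1.85. After scaling it did not pass as deposited (1.59), with a pseudocount of 0.1 (2.00), at a filter of 5 FPKM (1.98), with all 22 libraries (2.00), with no trend (1.98), with the receptor covariate (2.05), without a length trend (1.81), without the lowest medians (1.38), with Eif2s3y under 10 FPKM (1.62), and in 12 of 14 fits without 1 library, whose values ran from 1.67 to 2.22 over all 14. For the other 29 named genes no setting turned the direction as deposited. Leaving out 1 library kept the call under both scalings in 283 of 406 fits, and 9 genes kept it under every setting run: Cd14, Cxcl1, Cxcl10, Fosl1, Has1, Hdc, Il1b, Il6 and Tnfaip6. No named fall did: all 11 lost the call after scaling with only the libraries with Eif2s3y under 10 FPKM. With all 14 libraries and the Eif2s3y level as a covariate, all 11 kept the call under both scalings. Depth in reads is unknown, so the precision of levels under 1 FPKM is not known.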
